A study of Canis lupus familiaris with 6 samples.

Results

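A set of 82 gene identifiers in dog aortic endothelial cells differed widely between the 3 replicate numbers of the study and little between nanoplastics-treated and untreated cells of 1 number. The 82 were chosen from all 6 libraries by level, by the spread between replicate numbers and by the treated-to-untreated difference, out of 30951 identifiers in the table. Levels are in CPM, counts scaled to a library total of 1000000, put on a scale of log2(CPM+1), on which folds of low levels are understated. A pair is the treated and the untreated library of 1 replicate number, and its pair mean is the mean of both on that scale. A member lies outside the 200 identifiers of highest mean CPM and has a mean of at least 10 CPM. Its treated and untreated levels differ by at most 0.5 in every pair, and its highest and lowest pair means differ by at least 1.5. Because both contrasts chose the members, the members' values under either are a description. Calls and p-values of the fits over the whole table are printed for them without being read as evidence.

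The cells were CnAOEC, a purchased culture of dog endothelial cells from the aorta, kept in an endothelial medium to which bovine serum was added. Polystyrene nanoplastics, 100 nm in diameter, were given at 25 µg/mL for 48 hours to the cells of the 3 treated libraries. The treatment protocol gives this unit, while the design text of the series gives the dose as 25 µM. The cells of the other 3 libraries were left untreated as controls. Both groups share the cell source and the medium, and the labels name no donor, passage or genotype. Each replicate number stands for 1 code that its treated and its untreated library share, and the labels do not say whether that code marks a culture, an extraction or a library preparation, so these cannot be told apart and the term replicate number is used throughout. It is likewise not stated whether the replicates were separate cultures, so any p-value here rests on a library-to-library spread that may be technical.

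Aortic endothelial cells form the inner lining of the largest artery, where they act as the barrier between blood and vessel wall and control vessel tone, clotting and the entry of blood cells into tissue. Grown in culture, they can be given particles directly, and untreated cells serve as the reference for treated ones. With libraries in pairs, a gene may differ between treated and untreated cells within each pair. It may also differ from pair to pair, with both libraries of a pair alike. The identifiers described here were chosen as the second kind. The table gives Ensembl dog identifiers with no gene symbols, and 0 of them could be matched to a symbol. The members therefore have no names, functions, positions or sequences here, and the endothelial label could not be checked against marker genes.

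Library totals were 12449440 to 15900331 counts, and 16424 to 16843 identifiers had a count in each library. Totals were 15408411 and 15900331 counts in number 1 (treated, untreated), 14035554 and 15711104 in number 2, and 12449440 and 15146592 in number 3. Number 1 thus had the highest total in each group. The part of depth in the results was not tested beyond the scaling to CPM and the thinning to an equal total given under the processing alternatives.

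Large differences between replicate numbers were uncommon at these levels. Of the 8364 identifiers outside the 200 highest with a mean of at least 10 CPM, 111 (1.33%) had a range of pair means of 1.5 or more. The median range over all 8364 was 0.243. The members are the 82 of those 111 (73.9%) that also met the pair limit. Of all 8364, 8106 (96.9%) met that limit, so likeness within pairs was common at these levels and not particular to the members. None of the 200 most abundant identifiers (0 of 200) had such a range, and the widest among them was 1.22. Among the members the range ran from 1.51 to 2.87 with a median of 2.22. It was 2 or more, a 4-fold difference on this scale, in 52 members, and 2.5 or more in 20.

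**Figure D1:**
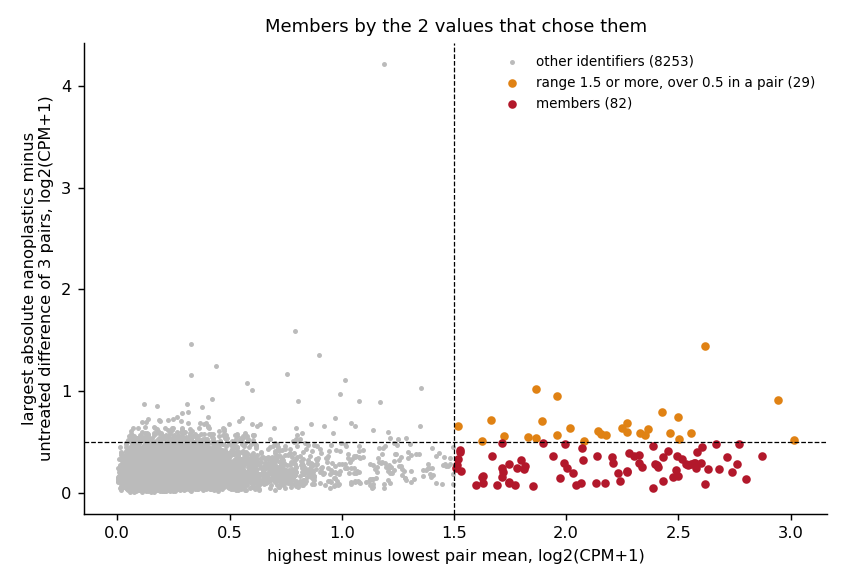
The 8364 identifiers outside the 200 highest with a mean of at least 10 CPM, by range of pair means (horizontal axis, log2(CPM+1)) and largest absolute treated-to-untreated difference of the 3 pairs (vertical axis, same scale), with the 82 members in red, 29 that met the range but not the pair limit in orange, and dashed lines at 1.5 and 0.5. The members fill the lower right field, and 17 identifiers that met the pair limit lie just left of it, at a range of 1.4 to 1.5.

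The limits of the choice passed through a continuous spread of values. The member with the smallest range stood at 1.509, and the nearest identifier left out for its range at 1.498. There were 7 members under a range of 1.6, and 17 identifiers between 1.4 and 1.5 met every other condition. On the pair limit, the member with the largest pair difference stood at 0.492 and the nearest one left out at 0.504. On the level limit, 57 identifiers under 10 CPM met all the other conditions, the highest of them at 9.91 CPM.

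The 29 identifiers with a wide range that exceeded the pair limit mostly did so once. In 24 of them a single pair was over 0.5. Pair 2 was over the limit in 19, and in 18 of these the treated library was the higher one. Pair 3 was over it in 10 (treated higher in 4) and pair 1 in 5 (treated higher in 0). Their median level was 15.1 CPM, against 28.9 CPM for the members. The largest pair difference among them was 1.45.

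Members were expressed at low to moderate levels. Mean levels over the 6 libraries ran from 10.2 to 280.0 CPM with a median of 28.9, against a median of 43.1 for the 8364. In 43 members the mean was under 30 CPM, and in 4 it was 100 CPM or more. In counts, the members' values ran from 34 to 5667 per library with a median of 358.5. The lowest count, 34, has an exact 95% Poisson interval of 23.5 to 47.5, which covers counting error only. Together the members took 0.439% and 0.437% of all counts in number 1 (treated, untreated), 0.283% and 0.263% in number 2, and 0.286% and 0.284% in number 3.

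The members fell into few patterns, and 1 pattern held most of them. In 61 of 82 members (74.4%) number 1 was highest, number 3 in the middle and number 2 lowest. In 13 members (15.9%) the order was reversed, with number 2 highest, number 3 in the middle and number 1 lowest. In 6 members (7.32%) number 3 was highest and number 1 lowest, and in 2 (2.44%) number 2 was highest and number 3 lowest. The remaining orders, with 1, 2, 3 or 3, 1, 2 from highest to lowest, held 0 members. Orders were read from the pair means however close these lay. A member with number 3 highest had pair means of 5.259 in number 3 and 5.253 in number 2. A member of the order 2, 3, 1 had 3.388 in number 3 and 3.312 in number 1. Among the 8364 identifiers the same first order held 23.9%, and the order 1, 2, 3, absent from the members, was the most frequent at 26.1%. These shares hold a small offset between numbers on the CPM scale. Over the 8364, a pair mean minus the mean of the 3 had a median of 0.046 in number 1. In number 2 it was -0.004 and in number 3 -0.042. The part of this offset in the shares was not tested.

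**Figure D2:**
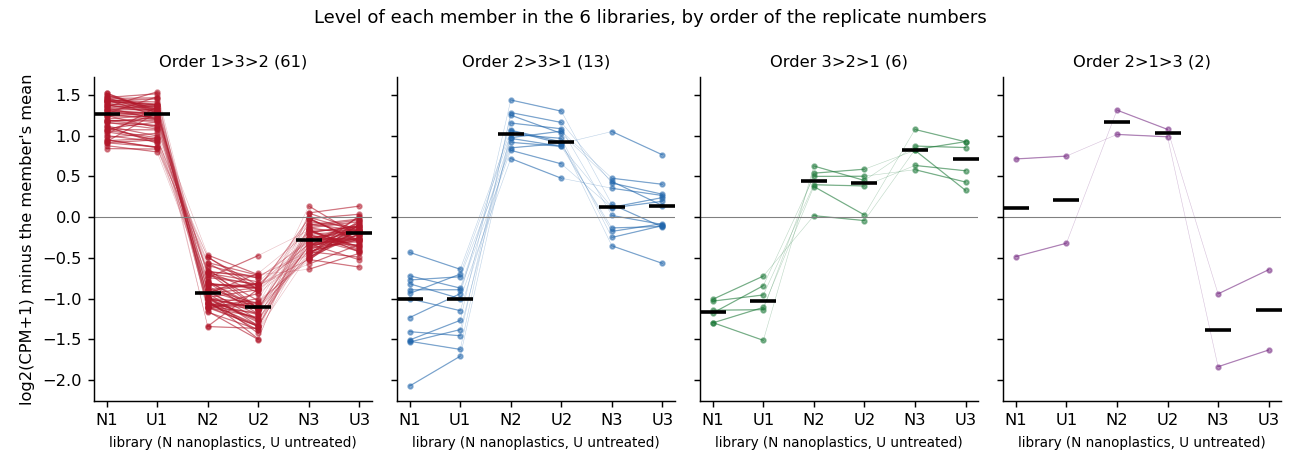
Level of each member in the 6 libraries as log2(CPM+1) minus the member's own mean (vertical axis), in 1 panel for each order of the replicate numbers, with N for nanoplastics, U for untreated and the replicate number after it. Points joined by heavier lines are the 2 libraries of 1 number, and black bars are medians; the 61 members of the first panel sit high in both libraries of number 1 and low in both of number 2.

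Number 1 stood apart from the other two in most members. It was the number farthest from the middle one in 72 members: above the others in 59 and below them in 13. Number 2 was the odd one in 8 (above in 6, below in 2) and number 3 in 2 (1 each way). Over the 8364, number 1 was the odd one above the others in 29.8% and below them in 13.0%, and number 3 was the odd one below in 20.4%. The offset between numbers given above was not removed from these shares. In 38 members (46.3%) the middle number lay within the central part of the range, from 0.333 to 0.667 of the way up, against 36.2% of the 8364.

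The choice rests on number 1. With the libraries of number 1 left out, the same conditions on the other two pairs held for 2 identifiers, both of them members. Without number 2 they held for 54, of which 43 were members, and without number 3 for 93, of which 78 were members.

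Members high in number 1 were lower in number 2 by several-fold. Among these 61, the ratio of number 1 to number 2 had a median of 5.58-fold in untreated libraries (2.63 to 9.91) and 5.23-fold in treated ones (2.62 to 8.22). The ratio of number 1 to number 3 had a median of 2.85-fold in untreated libraries (1.71 to 4.41) and 3.1-fold in treated ones (1.85 to 4.34). Their summed level was 3829 CPM in treated and 3777 CPM in untreated number 1, 816.8 and 723.6 CPM in number 2, and 1340 and 1407 CPM in number 3. The sums of number 1 lay above those of the other 4 libraries, and each pair lay closer together than any of the distances between numbers. The median member of the 61 was at 23.8 CPM, and 43 of the 61 had a range of 2 or more.

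Grouping by the order 1, 3, 2 places number 3 between the other two. Its position there comes from the same pair means that chose the members, so it is a description. On the log2 scale, with number 2 at 0 and number 1 at 1, number 3 had a median position of 0.323 in the 61 members. The quartiles were 0.28 and 0.383, and the full span was 0.0255 to 0.554. It was nearer to number 2 than to number 1 in 59 of 61. In untreated libraries alone the median position was 0.383 (quartiles 0.309 and 0.438), and in treated libraries alone 0.285 (quartiles 0.234 and 0.353). The position was lower in the treated libraries for 45 of 61 members. For identifiers of the same order with a range of 1 to 1.5, 56 in number, the median position was 0.269 (quartiles 0.157 and 0.402), and for the 231 with a range of 0.5 to 1 it was 0.342 (quartiles 0.18 and 0.534). The same counting error moves the position more where the range is smaller, so the quartiles are given as a description.

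Of the members with 1 number above the other two, ENSCAFG00000009336 had the largest range. It was at 115.7 CPM in treated and 119.4 CPM in untreated number 1, at 17.7 and 15.2 CPM in number 2, and at 29.6 and 41.7 CPM in number 3. Number 1 was high in both of its libraries, and number 3 differed most between treated and untreated. Over the replicates this gave 54.3 ± 53.4 CPM in treated and 58.8 ± 54.2 CPM in untreated libraries (SD, n = 3 each), so that the spread between numbers was nearly as large as the mean.

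ENSCAFG00000012593 was next among them. It was measured at 92.1 and 87.9 CPM in number 1 (treated, untreated), 14.6 and 11.3 CPM in number 2, and 35.0 and 30.0 CPM in number 3. The treated library was the higher one in every pair, by 0.07, 0.35 and 0.22 on the log2(CPM+1) scale, while the range between numbers was 2.72. Treated libraries had 47.2 ± 40.2 CPM and untreated ones 43.1 ± 40.0 CPM (SD, n = 3 each). These SDs hold the spread between numbers by which the member was chosen, so their overlap does not bear on the difference within pairs.

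The 19 members lowest in number 1 were more varied and more abundant. Their median level was 48.2 CPM, and their range had a median of 1.81, against 2.28 for the 61 members highest in number 1. The summed level was 460.0 and 479.7 CPM in number 1 (treated, untreated), 1788 and 1702 CPM in number 2, and 1480 and 1385 CPM in number 3. In the 13 of them with number 2 highest, the ratio of number 2 to number 1 had a median of 4.18-fold in untreated libraries (2.87 to 7.37) and 4.19-fold in treated ones (2.98 to 9.52). In the 6 with number 3 highest, the ratio of number 3 to number 1 had a median of 3.1-fold in untreated (2.52 to 5.63) and 3.95-fold in treated libraries (3.19 to 5.32).

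Of the members with 1 number below the other two, ENSCAFG00000006777 had the largest range, which was also the widest of all 82. It was at 10.7 CPM in treated and 14.1 CPM in untreated number 1, from 165 and 224 counts. In number 2 it was at 102.0 and 91.3 CPM, and in number 3 at 101.3 and 82.9 CPM. Numbers 2 and 3 were alike, with overlapping libraries, and number 1 was low in both. Treated libraries had 71.3 ± 52.5 CPM and untreated ones 62.7 ± 42.3 CPM (SD, n = 3 each). The treated library was lower in pair 1, by 0.37 on the log2(CPM+1) scale, and higher in pairs 2 and 3, by 0.16 and 0.29.

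ENSCAFG00000014319 came second on that side, with number 3 in the middle, at 0.688 of the way up the range. It was at 13.9 and 12.9 CPM in number 1, 103.5 and 95.03 CPM in number 2, and 56.3 and 51.1 CPM in number 3 (treated, untreated). No library of 1 number overlapped with those of another, and treated libraries were higher in each pair by 0.10, 0.12 and 0.14 on the log2(CPM+1) scale. The group values were 57.9 ± 44.8 CPM for treated and 53.0 ± 41.1 CPM for untreated libraries (SD, n = 3 each).

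The 2 members with number 3 lowest differed in shape from each other. One was at 61.9 and 63.5 CPM in number 1 (treated, untreated), 76.5 and 74.98 CPM in number 2, and 9.72 and 11.4 CPM in number 3, so that numbers 1 and 2 were close and number 3 was low. The other was at 41.5 and 46.7 CPM in number 1, 147.1 and 124.7 CPM in number 2, and 30.0 and 37.0 CPM in number 3, with number 2 standing above the others. Both were picked out with their values known.

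The 4 most abundant members, also picked out with their values known, belonged to 3 different orders. The most abundant had number 1 lowest, at 122.6 and 129.2 CPM (treated, untreated), with 332.1 and 328.6 CPM in number 2 and 391.6 and 374.1 CPM in number 3. The second had number 1 highest, at 303.9 and 310.2 CPM, with 49.6 and 48.8 CPM in number 2 and 132.2 and 140.2 CPM in number 3. The next had number 2 highest, at 244.8 and 258.7 CPM, against 42.1 and 46.9 CPM in number 1 and 172.9 and 164.2 CPM in number 3. The last of them had 223.0 and 211.4 CPM in number 1, 67.6 and 65.6 CPM in number 2 and 119.4 and 123.9 CPM in number 3. At these levels, with at least 649 counts in every library, treated and untreated libraries of a number differed by no more than 0.152 on the log2(CPM+1) scale.

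The share of the order 1, 3, 2 grew with the range among all identifiers of these levels. It was 22.3% of the 7319 identifiers with a range under 0.5, 28.8% of the 803 between 0.5 and 1, 42.7% of the 131 between 1 and 1.5, and 75.7% of the 111 at 1.5 or more, members included. The order 1, 2, 3 went the other way, from 27.7% under 0.5 over 17.6% and 9.92% to 0% at 1.5 or more. Small differences thus had mixed orders, and the widest ones mostly ran from number 1 over number 3 to number 2. The offset between numbers was not removed here either, and an offset of 1 size weighs more where the range is small. Its part in the shares of each bin was not tested.

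**Figure D3:**
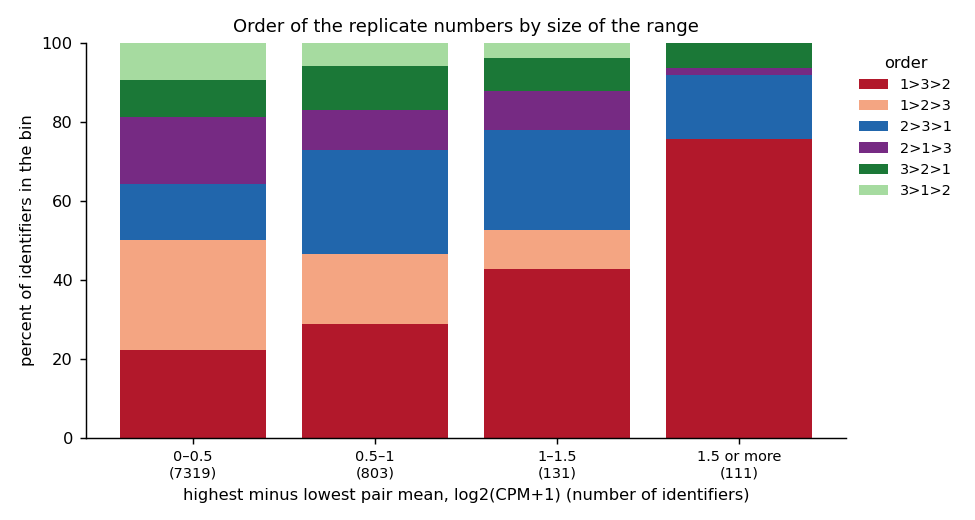
Share of each order of the replicate numbers, from highest to lowest pair mean (vertical axis, percent), among the 8364 identifiers binned by range of pair means (horizontal axis, log2(CPM+1), number of identifiers below each bar). The share of the order 1, 3, 2 is 22.3% in the first bin and 75.7% in the last.

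The treated and the untreated libraries were also read separately. Taken alone, the 3 treated and the 3 untreated libraries ordered the replicate numbers alike in 78 of 82 members, against 40.2% of the 8364. In 76 members the 2 libraries of each number stood next to each other when all 6 libraries were sorted by level. The range and the pair limit of the choice make such likeness nearly certain for the extreme numbers. To read 1 group apart from the other, the range was also taken from the untreated libraries alone. The 8364 searched were still set by their level over all 6 libraries. A highest-to-lowest difference of 1.5 or more in the untreated libraries gave 114 identifiers, 79 of them members. In the treated libraries, 106 of the 114 had the same highest and lowest number, 102 had a difference of 1.5 or more, and the smallest difference was 1.14. Their median difference was 2.31 in the untreated libraries that chose them and 2.09 in the treated ones. Chosen by the treated libraries, 124 identifiers were found, of which 112 kept the same highest and lowest number in the untreated libraries and 102 had a difference of 1.5 or more there. Their median difference was 2.06 in the treated libraries that chose them and 2.19 in the untreated ones, so the untreated libraries had the larger median either way. In this direction 118 of 124 had a difference of 1 or more, and the smallest was 0.277, while from untreated to treated all 114 of 114 had 1 or more.

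**Figure D4:**
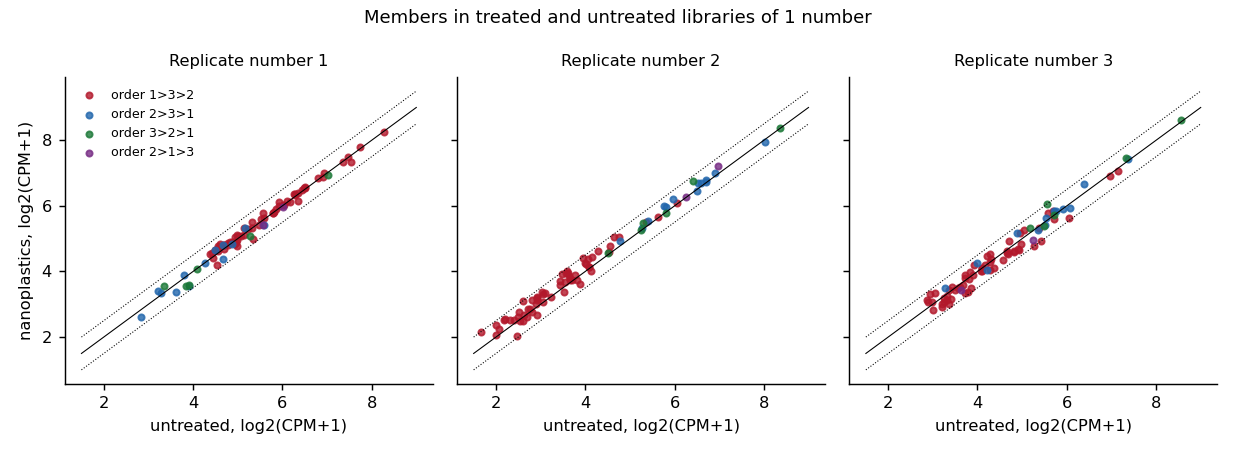
Level of the 82 members in the treated library (vertical axis) against the untreated library (horizontal axis) of each replicate number, both as log2(CPM+1), coloured by order; the solid line marks equal levels and dotted lines the limit of 0.5. The red points, members of the order 1, 3, 2, lie in the upper part in number 1 and in the lower part in number 2.

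Replicate number took 98.9% of the members' sum of squares of log2(CPM+1), treatment 0.313% and the remainder 0.822%. For all 8364 identifiers the shares were 81.8%, 5.86% and 12.4%. The shares of the members follow from the way they were chosen and are given for scale. In a fit over the whole table, the 3 replicate numbers were compared by edgeR's quasi-likelihood test, with treatment as a further term and a threshold of 0.05 on the Benjamini-Hochberg adjusted p. This called 21.1% of 12816 tested identifiers. All 82 members passed the count filter, and 82 were called. Between numbers 1 and 2, 61 members were higher in number 1 (background 9.53%) and 21 lower (background 8.77%). Between numbers 1 and 3, 62 were higher in number 1 (background 7.11%) and 18 lower (background 6.95%). Between numbers 2 and 3, 13 were higher in number 2 (background 3.56%) and 54 lower (background 3.75%). Nothing is read from these counts, since the same contrasts chose the members.

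The comparison for which the series was designed, nanoplastics against untreated cells, gave no called member. In edgeR's quasi-likelihood test without a block for replicate number, 0 of 82 members and 0% of 12816 identifiers were called (adjusted p = 0.9999 for every member; 0 members and 114 of all identifiers at an unadjusted p under 0.05). With the block, edgeR called 0 members and 0% of all identifiers, with an adjusted p of 0.9998 for every member, while the unadjusted p was under 0.05 for 5 members and for 491 of all identifiers. Limma-voom, given the block too, called 0 members (0% of all) and put 3 under an unadjusted 0.05. DESeq2 with the block called 0 members (0.0152% of 19698) and put 0 there. In the blocked edgeR fit the members' log2 changes with nanoplastics ran from -0.18 to 0.32 with a median of 0.04 and standard errors of 0.06 to 0.17. In limma-voom with the block, 82 of 82 members had a 95% interval of the fold change no wider than 1.5-fold up or down. The cap on the pair difference sets a limit to these sizes beforehand. In the fit without the block, the spread between numbers that chose the members also counts as error, so members could hardly be called there.

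The sign of the treated-to-untreated difference, which the cap did not fix, was not even across pairs. In pair 2 the treated library was higher in 68 of 82 members, with a median difference of 0.14 on the log2(CPM+1) scale. In pair 1 it was higher in 50, with a median of 0.03, and in pair 3 in 36, with a median of -0.06. Among the 8364 the treated library was higher in 47.9% in pair 2, 44.3% in pair 1 and 51.2% in pair 3, with medians of -0.008, -0.02 and 0.005. All 3 pairs went 1 way in 19 members (17 higher and 2 lower with nanoplastics), which is 23.2%. The share was also 23.2% among the 8364, but with the opposite balance, 796 higher and 1143 lower. These signs are on CPM of column totals, and the balance of small differences depends on the scaling. In the blocked edgeR fit, which used TMM scaling, 6344 of 12816 tested identifiers and 56 of the 82 members were higher with nanoplastics. The members' mean difference over the pairs had a median of 0.03, and it was -0.004 without pair 2, 0.059 without pair 1 and 0.084 without pair 3. These differences come from the contrast that the choice capped and are not tested.

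The signs were split by order. In the 61 members highest in number 1, treated cells were higher in 51 in pair 2 (median 0.16) and in 43 in pair 1 (median 0.04), but lower in 38 in pair 3 (median -0.07). In the 19 members lowest in number 1, treated cells were higher in 15 in pair 2 (median 0.10) and in 13 in pair 3 (median 0.09), and lower in 12 in pair 1 (median -0.04). In pairs 1 and 3 the medians of these groups thus had opposite signs, and in pair 2 they had the same sign. Whether these shifts differ beyond the spread between libraries was not tested, since each pair holds 1 treated and 1 untreated library.

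**Figure D5:**
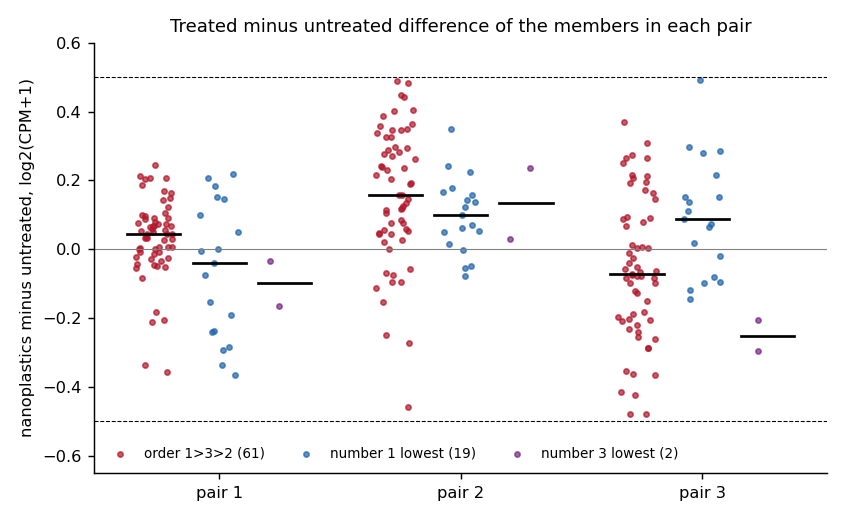
Treated minus untreated difference of each member in each pair (vertical axis, log2(CPM+1)), for the 61 members of the order 1, 3, 2, the 19 with number 1 lowest and the 2 with number 3 lowest; black bars are medians and dashed lines the limit of 0.5. Most points of pair 2 lie above 0, where the treated library was higher in 68 of 82 members.

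The members' pair differences were set beside the counting error of each library. The choice capped these differences at 0.5, so their small size is part of the choice, and the values are a description. Of 246 treated-to-untreated log2 ratios (82 members, 3 pairs), 171 (69.5%) lay within 1.96 Poisson standard errors of 0, against 67.4% for the 8364. Counting error alone would place 95% there, so the pairs of both sets differed by more than counting error. The members' median absolute ratio was 0.141 with a median standard error from counts of 0.108, and for the 8364 these were 0.102 and 0.0814. By pair, 63 members (76.8%) lay within that limit in pair 1, 55 (67.1%) in pair 2 and 53 (64.6%) in pair 3, against 67.7%, 70.4% and 64.3% of the 8364. The largest pair difference of a member had a median of 0.266, which is above the 0.19 of the 8364. It was within 0.2 in 24 members (29.3%, against 54.0% of the 8364) and within 0.1 in 12 (14.6%, against 15.4%).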

How the data were processed

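RNA was sequenced from 6 libraries, 3 with nanoplastics and 3 untreated. Per the labels' protocols, total RNA libraries were made with a stranded kit after depletion of ribosomal RNA. The authors deposited raw read counts per Ensembl identifier, 1 column per library, not pooled. The submitters' processing notes name STAR 2.7.11a, Trimmomatic 0.39, FastQC 0.12.1 and DESeq2, and the build CanFam 3.1. How reads were counted, and on which strand, is not stated, so overlapping or near-identical genes may share reads. Of the 43286 genes in the RefSeq reference table (UU_Cfam_GSD), 0 carry an Ensembl identifier, so the lists of named genes and markers were not tested.

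CPM used column totals, with a pseudocount of 1. EdgeR 4.0.16 (quasi-likelihood, filterByExpr with a minimum count of 10, TMM) was fitted on the whole table, with DESeq2 1.42.0 and limma 3.58.1 as alternatives, in R 4.3.3, and Benjamini-Hochberg adjustment. Fits were tested on simulated data. Same-numbered libraries share a code in their names, and after centring each group their levels correlated across identifiers at 0.80, 0.773 and 0.502 (libraries of different numbers and groups: -0.684 to 0.028), so the numbers pair the samples. Counts of libraries of a group differed by a chi-square of 13.0 to 32.5 per degree of freedom (5.34 to 7.08 within pairs), so none was taken for a copy. Identifiers are printed for the 2 members of largest range whose odd number is above the others and the 2 whose odd number is below. The members and lists were chosen with earlier results of these data known.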

Additional observations from a re-analysis of the deposited data

How the results depend on the processing

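The number of members, 82, was 82 to 115 with a pseudocount of 0.5 or 2, TMM scaling, a level limit of 5 CPM, a pair limit of 0.75 or no exclusion of the 200 highest, and 55 with a pair limit of 0.3. It was 200 with a range limit of 1, 52 with a range limit of 2 and 54 with a level limit of 20 CPM. Leaving out both libraries of 1 replicate number gave 2 to 93, the 2 being without number 1. Chosen after seeing the data, thinning every library to the smallest total and shifting libraries to an equal median gave 84 each, 79 of them shared with the 82. The order 1, 3, 2 held 61 of the same 82 under each of 3 other scales, which move the pair means little against their range. Among the identifiers chosen at other limits its share moved. It held 34 of 54 with a level limit of 20 CPM, 111 of 200 with a range limit of 1 and 43 of 52 with a range limit of 2. The median range, 2.22, was 2.295 with a pseudocount of 0.5 and 2.071 with 2, as the pseudocount acts on low levels. TMM moved library levels by -0.043 to 0.041 on the log2 scale. Choosing by untreated libraries gave 101 to 110 identifiers with the same extreme numbers in treated ones, against 106. Identifiers differing between replicate numbers, 2701, numbered 1833 to 3334 over 10 alternatives. For nanoplastics against untreated, the replicate block gave 0 calls in edgeR and limma-voom and 3 in DESeq2, none of them a member, and the 9 alternatives without the block, leaving out each library among them, gave 0. Counting error limits the pair differences of the members of lowest level, and detection below 10 CPM was not examined for them.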

Other observations

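Below the level limit the order 1, 3, 2 was again the most frequent, but the orders that held no member also occurred. The 57 identifiers with a mean of 1.02 to 9.91 CPM that met every other condition had the order 1, 3, 2 in 37 cases. The reverse order 2, 3, 1 held 6 of them, the order 2, 1, 3 held 5, the order 3, 2, 1 held 4, the order 1, 2, 3 held 3 and the order 3, 1, 2 held 2. Among the 33 of them at 5 CPM or more, 25 had the order 1, 3, 2. Of the 29 identifiers that met the range and exceeded the pair limit, 23 had the order 1, 3, 2, with 5 in the order 2, 3, 1 and 1 in the order 3, 2, 1. These counts describe the same 6 libraries as the members and are not independent of them.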
